A study of Schizosaccharomyces pombe with 8 samples.

Results

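Small nuclear and nucleolar RNAs were described across 4 strains of Schizosaccharomyces pombe, the fission yeast. The members were all gene IDs of the deposited count table that begin SPSNRNA or SPSNORNA and had at least 15 counts summed over the 8 libraries. Of 60 such IDs among the 7000 in the table, 37 were members. At the limit, snoR54b (16 counts) and snR96 (19 counts) were just inside, and snR95 (13 counts) and snR91 (6 counts) just outside. The annotation called 5 members spliceosomal snRNAs, 2 U3 RNAs, 10 box H/ACA snoRNAs and the other 20 snoRNAs with no box class given. The U3 RNAs act in the nucleolus although their IDs begin SPSNRNA.

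The 3 mutants carried rpb1 S2A::kanMX6, rpb1 S7A::kanMX6 or rpb1 Y1F::kanMX6, each with Rpb3-3HA::hphMX6 and of the h- mating type. WT was h- with the same Rpb3-3HA::hphMX6, so that every strain had a tagged Rpb3 and only the mutants had the kanMX6 marker at rpb1. Each strain is named by 1 strain number in the labels. Rpb1 is the largest subunit of RNA polymerase II, and its C-terminal domain (CTD) is made of repeats of 7 residues. By their names, the mutants replace serine 2 with alanine (S2A), serine 7 with alanine (S7A) or tyrosine 1 with phenylalanine (Y1F). Cells were grown in YES (rich) medium until the optical density was 0.5, and total RNA depleted of ribosomal RNA was sequenced as read pairs of 100 nt, with 2 libraries a strain. Whether the 2 libraries of a strain came from different cultures is not said in the labels, and the p-values measure only how far these samples spread, part of which may be technical.

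Small nuclear RNAs are the RNA parts of the spliceosome: U1 and U2 recognise the intron, and U4, U5 and U6 join as a preassembled particle. Small nucleolar RNAs guide the modification of ribosomal RNA, box C/D RNAs directing 2′-O-methylation and box H/ACA RNAs pseudouridylation, and a few, such as U3 and U14, are needed to cut the ribosomal RNA precursor. RNA polymerase II makes nearly all of them, U6 being made by RNA polymerase III, and they end without the long poly(A) tail of an mRNA. In metazoans, serine 7 phosphorylation of the CTD is known for its part in snRNA synthesis.

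The sequences below are those of 6 of the 8 members with a call against WT that held under every one of 15 other settings (snR94 and snu4 are not shown), and of the U1 RNA. They come from the RefSeq annotation of ASM294v3, looked up by gene ID, and are written as DNA letters. In the first 4 the capitals mark the box C motif TGATGA and the box D motif CTGA, in sno12 and snR42 the ACA near the 3′ end, and in U1 the first 6 bases, which pair with the 5′ splice site.
snoU14: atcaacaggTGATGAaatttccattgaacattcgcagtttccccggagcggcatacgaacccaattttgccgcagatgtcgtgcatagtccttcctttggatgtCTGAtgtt
snoR69: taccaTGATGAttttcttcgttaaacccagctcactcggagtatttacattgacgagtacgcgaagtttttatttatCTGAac
snoR69b: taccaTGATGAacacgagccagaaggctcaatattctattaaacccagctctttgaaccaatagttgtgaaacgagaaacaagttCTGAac
snr79: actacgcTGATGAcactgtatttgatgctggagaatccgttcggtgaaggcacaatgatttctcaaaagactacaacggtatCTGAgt
sno12: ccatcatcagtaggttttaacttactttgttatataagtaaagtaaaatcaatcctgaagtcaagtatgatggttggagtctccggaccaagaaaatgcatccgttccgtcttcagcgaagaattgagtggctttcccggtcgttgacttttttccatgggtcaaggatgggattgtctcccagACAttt
snR42: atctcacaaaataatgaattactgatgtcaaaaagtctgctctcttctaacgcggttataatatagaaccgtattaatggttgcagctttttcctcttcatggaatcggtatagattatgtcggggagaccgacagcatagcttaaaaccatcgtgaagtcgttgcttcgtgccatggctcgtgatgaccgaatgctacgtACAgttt
snu1: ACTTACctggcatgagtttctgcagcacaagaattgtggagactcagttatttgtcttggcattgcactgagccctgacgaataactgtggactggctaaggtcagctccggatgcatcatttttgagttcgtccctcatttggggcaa

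A TGATGA followed by a CTGA on the RNA's own strand was present in 12 of the 20 snoRNAs with no class given, in 1 of 10 box H/ACA RNAs, in 1 of the 2 U3 RNAs and in 0 of 5 snRNAs. The genome was cut on both strands into 302932 windows of 83 nt, the median length of the 20, without overlap and without regard to genes. Of these windows 0.474% held the motifs in that order. An ACA in the last 8 bases was present in 7 of the 10 box H/ACA members and in 1 of the 20. snoR69 and snoR69b both began with taccaTGATGA and shared an exact run of 13 bases, ttaaacccagctc, with no longer run in common. The U3 genes snu3 and snu32 shared a run of 31 bases, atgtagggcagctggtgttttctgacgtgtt, which bears on how reads could be divided between them. Of the members, 10 lay in an intron of another gene of the same strand, and 7 overlapped a gene of the opposite strand. The 7 were sno52, snR96, snoR02, snr79, snR36, snR92 and sno20. The libraries were made with a kit that keeps strand, but no source used here gives the strand setting of the counting, and counts of overlapping genes are uncertain to that extent.

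Member lengths ran from 47 to 273 nt, and total counts from 16 to 533783 with a median of 1592. Libraries held 13391705 to 23081870 counts. The members together took 0.691% and 0.947% of all counts in the S2A libraries, 0.396% and 0.559% in S7A, 0.582% and 0.539% in Y1F, and 0.588% and 0.8% in WT. Replicates of S2A, S7A and WT thus differed by as much as some strains did, and Y1F replicates were close. The U3 RNAs made up 75.3% to 82.4% of member counts, and without snu3 alone the mean share was 0.319% in S2A, 0.197% in S7A, 0.208% in Y1F and 0.279% in WT. Counts per length put snu3 highest in WT at 16448 CPM per kb (CPM, counts with each library scaled to 1000000 by its TMM-adjusted total), followed by snu32 at 5524 CPM per kb, sno12 at 3087 CPM per kb and snu2 at 1073 CPM per kb. Next came snR42 (667 CPM per kb), snu4 (494 CPM per kb) and snoU14 (452 CPM per kb), while U1, U6 and U5 stood at 132, 96.2 and 29.1 CPM per kb. Lengths were taken from gene start to gene end with any intron counted in, which would lower the value of a gene with an intron. The order of U1 and U6 is thus not settled. These values rank counts and not amounts of RNA, as how well RNAs of 47 to 273 nt were captured was not tested. Below, abundant means high in CPM. Fewer cells with an RNA and less RNA per cell cannot be told apart in bulk samples.

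The rpb1 transcript was lower in every mutant, with 387 and 382 CPM in S2A, 377 and 388 CPM in S7A, 450 and 449 CPM in Y1F, and 720 and 691 CPM in WT. Counts per gene cannot show the substitutions.

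Of the 37 members, 34 passed the filter on low counts and were tested. In S2A 4 were higher and 1 lower than in WT, and 29 were not called (edgeR quasi-likelihood test, Benjamini-Hochberg adjusted p under 0.05 over 6243 genes). Over all genes tested, 55.4% were called in S2A, 28.8% higher and 26.6% lower. In S7A 7 members were higher, 10 lower and 17 not called, where 47.4% of all genes were called (23.1% higher, 24.3% lower). In Y1F 3 were higher, 7 lower and 24 not called, where 35.0% of all genes were called (17.6% higher, 17.4% lower). The 34 had a median log2 change of −0.02 in S2A, −0.13 in S7A and −0.26 in Y1F, beside 0.01, −0.01 and 0.01 over all genes tested. By class, in S2A, S7A and Y1F, 0%, 80% and 20% of the snRNAs were called, and 11.1%, 44.4% and 33.3% of the box H/ACA RNAs. For the snoRNAs with no class given the shares were 44.4% in each mutant outside introns, and 0%, 44.4% and 11.1% in introns. Only sno52 was called in all 3 mutants, 8 members were called in 2 mutants, 13 in 1 and 12 in none. The S2A count of 5 was 11 without S2A replicate 1 and 8 without WT replicate 2, the S7A count of 17 was 8 without S7A replicate 1, and the Y1F count of 10 was 4 without Y1F replicate 2. Of the 32 calls against WT, 13 held under every one of 15 other settings: snoU14, snoR69b and snR94 in S2A, snoR69, sno12, snR42 and snu4 in S7A, snoU14, snoR69, snR42 and snu4 in Y1F, and snr79 in S2A and S7A. DESeq2 did not call snu1, snu3, snu6, snR33, snR94, snoR38, snoU18 and snoZ15 in S7A. In Y1F it did not call snu32, sno20, snoR02 and snoR39a. The losses given below for single members are only those on leaving out 1 library.

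**Figure D1:**
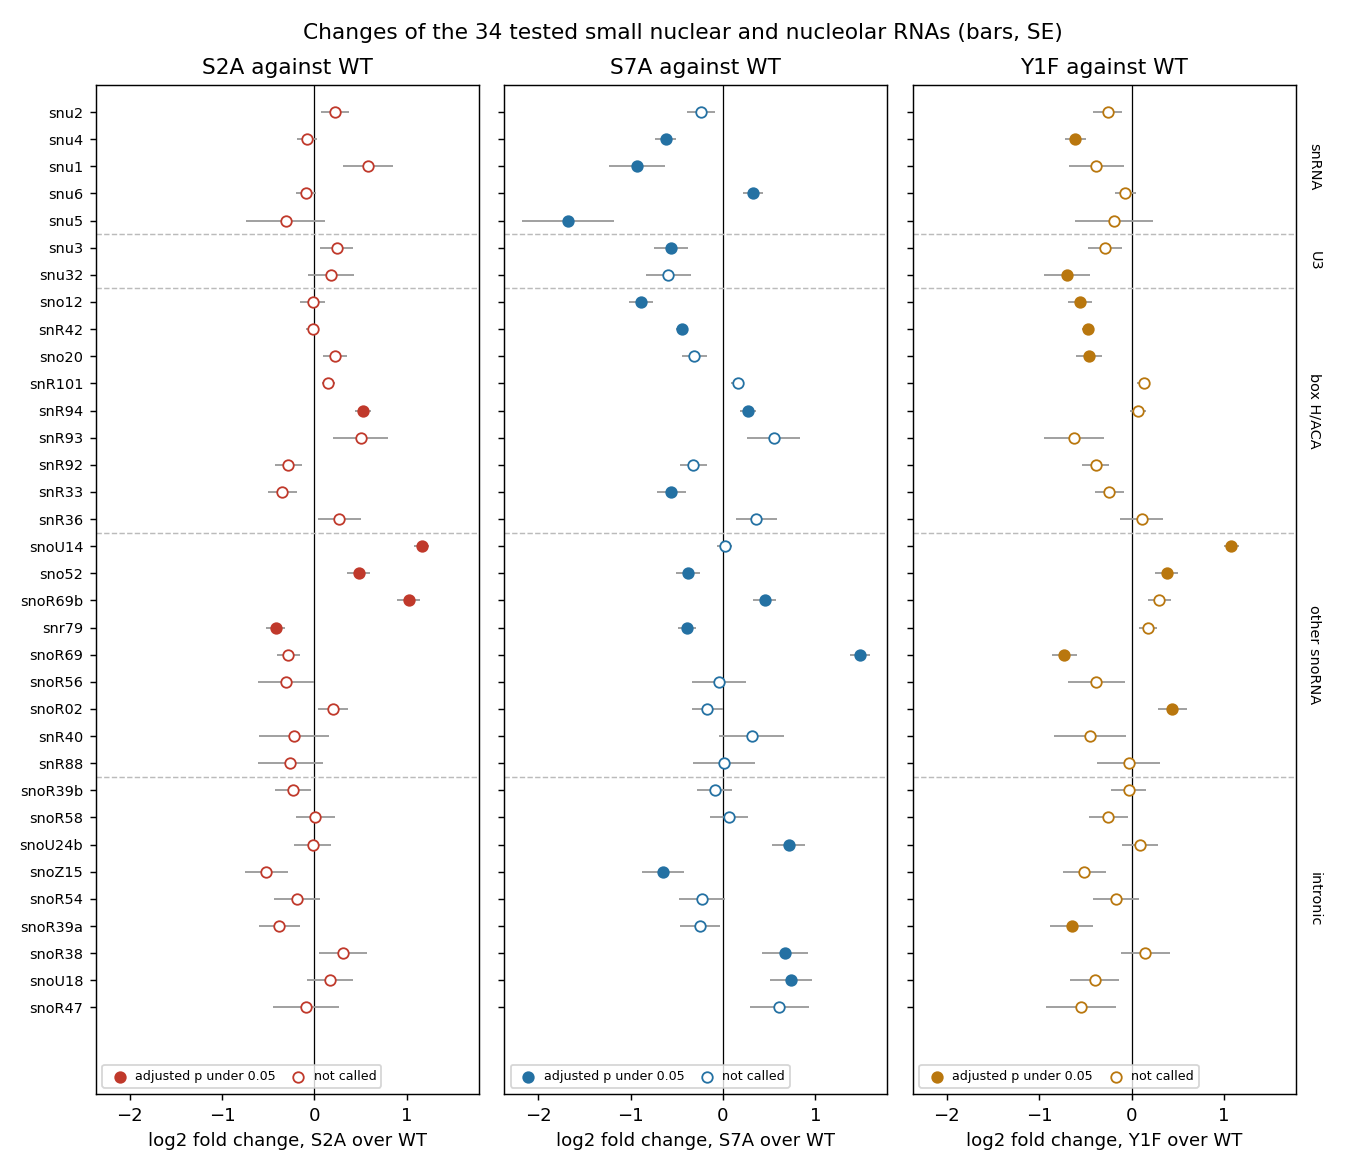
Log2 fold change (x axis) of each of the 34 tested members in S2A, S7A and Y1F over WT, with bars of 1 SE and filled points for an adjusted p under 0.05; members are grouped from top to bottom as snRNAs, U3 RNAs, box H/ACA, other snoRNAs outside introns and intronic snoRNAs. The points beyond 1 on either side are snoU14 (1.16) and snoR69b (1.02) in S2A, snoR69 (1.48) and snu5 (−1.68) in S7A, and snoU14 (1.08) in Y1F.

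Among the 5 spliceosomal snRNAs, U4 was lower in both S7A and Y1F, and S7A also had lower U1 and U5 and higher U6 (2 of 5 called in S7A by DESeq2). In S2A 0 were called by edgeR or by DESeq2, with 0 at an unadjusted p under 0.05 in either, and 1 was called when any 1 of the S2A or WT libraries was left out. The 4 calls in S7A were 2 without S7A replicate 1 or WT replicate 2, and the call in Y1F was joined by U2 without WT replicate 1. snu4 (SPSNRNA.04), the U4 RNA that carries U6 into the spliceosome, stood at 51.5 and 68.6 CPM in S2A, 39.9 and 41.5 CPM in S7A, 43.5 and 39.2 CPM in Y1F, and 58.7 and 66.7 CPM in WT. The S7A and Y1F libraries all lay below the WT libraries, and the S2A libraries overlapped them. The log2 change was −0.62 ± 0.112 in S7A (SE; adjusted p = 6.92e-04). In Y1F it was −0.61 ± 0.113 (adjusted p = 0.00146), and in S2A −0.08 (not called; −0.29, adjusted p = 0.02, without S2A replicate 2). snu1 (SPSNRNA.01), the U1 RNA that recognises the 5′ splice site, was at 21.3 and 38.7 CPM in S2A, 8.03 and 12.2 CPM in S7A, 19.5 and 11.9 CPM in Y1F, and 16.8 and 22.7 CPM in WT. S7A alone lay wholly below WT, at −0.93 ± 0.306 (adjusted p = 0.0243), and this call was lost without S7A replicate 1 (−0.69, adjusted p = 0.137) or WT replicate 2 (−0.70, adjusted p = 0.155). U1 in S2A was not called at 0.58, and was at 0.98 (adjusted p = 0.0088) without S2A replicate 1. snu5 (SPSNRNA.05), the U5 RNA that holds the exon ends, was low everywhere, at 2.53 and 3.11 CPM in S2A, 1.5 and 0.755 CPM in S7A, 3.75 and 2.53 CPM in Y1F, and 1.64 and 5.36 CPM in WT. The WT libraries were the farthest apart, and both S7A libraries lay below them. The change in S7A was −1.68 ± 0.497 (adjusted p = 0.0151), a call lost without WT replicate 2 (−0.60, adjusted p = 0.336) or S7A replicate 2 (−1.21, adjusted p = 0.134). In S2A it was −0.94 (adjusted p = 0.0265) without WT replicate 1 and not called with all libraries.

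snu6 (SPSNRNA.06), the U6 RNA at the catalytic centre of the spliceosome and the only RNA polymerase III product of the 5, was at 13.4 and 12.6 CPM in S2A, 18.6 and 16.2 CPM in S7A, 12.6 and 13.5 CPM in Y1F, and 13.4 and 14.3 CPM in WT. The S7A libraries lay above all others, and the change of 0.32 ± 0.108 over WT (adjusted p = 0.0277) lost its call without S7A replicate 1 (0.22, adjusted p = 0.202) or WT replicate 1 (0.28, adjusted p = 0.113). snu2 (SPSNRNA.02), the U2 RNA that pairs with the branch site, was at 206 and 261 CPM in S2A, 144 and 193 CPM in S7A, 167 and 168 CPM in Y1F, and 166 and 235 CPM in WT. The groups overlapped with WT in S2A, S7A and Y1F, and U2 was called in none of them. Leaving out 1 library gave calls both ways, at 0.49 in S2A without WT replicate 2 (adjusted p = 0.0157), and without WT replicate 1 at −0.47 in S7A (adjusted p = 0.019) and, for Y1F, −0.50 (adjusted p = 0.0211). Without S7A replicate 2 U2 was also at −0.47 in S7A (adjusted p = 0.0461).

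The U3 RNA is the box C/D RNA that base-pairs with the ribosomal RNA precursor and directs its first cuts. snu3 (SPSNRNA.03) stood at 4053 and 5873 CPM in S2A, 2308 and 3390 CPM in S7A, 3583 and 3322 CPM in Y1F, and 3644 and 4777 CPM in WT. Both S7A and both Y1F libraries were below the lower WT library. S7A was called at −0.56 ± 0.184 (adjusted p = 0.024), but not without S7A replicate 1 (−0.31, adjusted p = 0.223) or WT replicate 2 (−0.36, adjusted p = 0.178). snu32 (SPSNRNA.07), the second U3 gene, had 1228 and 1960 CPM in S2A, 688 and 1181 CPM in S7A, 943 and 791 CPM in Y1F, and 1124 and 1693 CPM in WT. Y1F was called at −0.70 ± 0.249 (adjusted p = 0.0454), but not without WT replicate 2 (−0.38, adjusted p = 0.313), Y1F replicate 1 (−0.83, adjusted p = 0.0694) or Y1F replicate 2 (−0.58, adjusted p = 0.214). In S7A snu32 was at −0.59 and not called, and at −1.03 (adjusted p = 0.00905) without S7A replicate 2 and −0.85 (adjusted p = 0.0202) without WT replicate 1. Without S2A replicate 2 it was −0.58 (adjusted p = 0.0495). snu32 counts were 30.3% and 33.4% of snu3 counts in S2A, 29.8% and 34.9% in S7A, 26.3% and 23.8% in Y1F, and 30.8% and 35.4% in WT. Y1F had the lowest ratio in both of its libraries; this was not tested, and with 2 libraries a side the smallest two-sided p of an exact permutation test is 0.333.

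Of the 9 box H/ACA RNAs tested, which guide pseudouridylation, 1 was higher in S2A (3 without WT replicate 2, and 1 higher and 1 lower without WT replicate 1), 1 was higher and 3 lower in S7A (4 and 3 without WT replicate 2, 0 and 2 by DESeq2), and 3 were lower in Y1F (5 without WT replicate 1, 1 without Y1F replicate 2). sno12 (SPSNORNA.32), the most abundant of them, was at 513 and 648 CPM in S2A, 271 and 361 CPM in S7A, 414 and 382 CPM in Y1F, and 528 and 645 CPM in WT. All S7A and Y1F libraries lay below WT, while S2A overlapped it. The change was −0.89 ± 0.132 in S7A (adjusted p = 1.79e-04), while Y1F stood at −0.56 ± 0.131 (adjusted p = 0.00593; −0.50, adjusted p = 0.0512, without Y1F replicate 2). snR42 (SPSNORNA.40) was at 138 and 136 CPM in S2A, 98.1 and 107 CPM in S7A, 108 and 93.8 CPM in Y1F, and 134 and 144 CPM in WT. It showed the same arrangement, with S7A at −0.44 ± 0.0661 (adjusted p = 2.19e-04) and Y1F at −0.47 ± 0.0668 (adjusted p = 2.28e-04).

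snR94 (SPSNORNA.46) moved the other way, with 31.7 and 30.4 CPM in S2A, 26.7 and 25.4 CPM in S7A, 23.1 and 22.3 CPM in Y1F, and 19.9 and 23.1 CPM in WT. S2A and S7A lay above WT, at 0.53 ± 0.0855 (adjusted p = 2.12e-04) and 0.27 ± 0.0864 (adjusted p = 0.0211). Its S7A call was lost without S7A replicate 1 (0.24, adjusted p = 0.11), S7A replicate 2 (0.31, adjusted p = 0.0507) or WT replicate 1 (0.17, adjusted p = 0.163). sno20 (SPSNORNA.34) was at 70.2 and 80.5 CPM in S2A, 43.7 and 59.4 CPM in S7A, 50 and 44.4 CPM in Y1F, and 56.7 and 72.2 CPM in WT. Y1F lay below WT at −0.46 ± 0.137 (adjusted p = 0.0215), a call lost without WT replicate 2 (−0.28, adjusted p = 0.176) or Y1F replicate 2 (−0.37, adjusted p = 0.157). Uncalled with all libraries, sno20 was called in S2A without WT replicate 2 (0.40, adjusted p = 0.0336) and in S7A without S7A replicate 2 (−0.56, adjusted p = 0.00783) or WT replicate 1 (−0.46, adjusted p = 0.0177). snR33 (SPSNORNA.38) was at 5.54 and 6.23 CPM in S2A, 4.55 and 5.46 CPM in S7A, 6.24 and 6.3 CPM in Y1F, and 7.73 and 7.14 CPM in WT. S7A was called at −0.56 ± 0.158 (adjusted p = 0.0119), but not without S7A replicate 1 (−0.45, adjusted p = 0.0881) or WT replicate 1 (−0.49, adjusted p = 0.0661).

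snR101 (SPSNORNA.52), among the 5 most abundant members with an SPSNORNA ID, was at 61.1 and 57.9 CPM in S2A, 57.1 and 63.2 CPM in S7A, 56.1 and 61.2 CPM in Y1F, and 51.7 and 56.1 CPM in WT. It was called in no comparison with all libraries, but was higher in S7A at 0.23 without S7A replicate 1 (adjusted p = 0.0429) and at 0.22 when WT replicate 2 was left out (adjusted p = 0.0467). snR93 (SPSNORNA.45) had replicates far apart in S2A, S7A and WT, with 20.1 and 31.9 CPM in S2A, 19.1 and 32.8 CPM in S7A, 13.7 and 10.4 CPM in Y1F, and 12.8 and 23.4 CPM in WT. No mutant was called against WT for snR93 with all libraries. Without WT replicate 2 it was at 0.99 in S2A (adjusted p = 0.0271) and 1.04 in S7A (adjusted p = 0.0249), without S7A replicate 1 at 0.86 in S7A (adjusted p = 0.032), and without WT replicate 1 it was called lower in Y1F (adjusted p = 0.0381).

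Of the 9 snoRNAs outside introns with no class given, 3 were higher and 1 lower in S2A (3 and 4 without S2A replicate 1), 2 and 2 in S7A (1 and 1 without S7A replicate 1), and 3 and 1 in Y1F (1 and 1 without WT replicate 1 or Y1F replicate 2). snoU14 (SPSNORNA.21), the U14 RNA needed in budding yeast to make 18S ribosomal RNA, was at 120 and 105 CPM in S2A, 50.6 and 52.1 CPM in S7A, 104 and 110 CPM in Y1F, and 46.6 and 54.6 CPM in WT. All S2A and Y1F libraries lay far above WT, and S7A lay within the WT range. S2A stood at 1.16 ± 0.0773 over WT (adjusted p = 1.22e-07), Y1F at 1.08 ± 0.0776 (adjusted p = 6.31e-07) and S7A at 0.02 (not called).

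snoR69 (SPSNORNA.19) and snoR69b (SPSNORNA.13), which share a name, their first 11 bases and the 13-base run, did not move together. snoR69 was at 10.7 and 8.8 CPM in S2A, 35.4 and 31.7 CPM in S7A, 7.71 and 6.88 CPM in Y1F, and 12.2 and 11.7 CPM in WT. S7A lay far above all other libraries and Y1F below them, with changes over WT of 1.48 ± 0.11 (adjusted p = 7.19e-07) and −0.73 ± 0.135 (adjusted p = 0.00142). S2A was not called at −0.28, and was at −0.44 (adjusted p = 0.0383) without S2A replicate 1. snoR69b was at 57.8 and 46.8 CPM in S2A, 36.7 and 34.1 CPM in S7A, 33.3 and 30.5 CPM in Y1F, and 22.5 and 29.4 CPM in WT. Every mutant library was above both WT libraries, and S2A was highest, at 1.02 ± 0.12 (adjusted p = 1.58e-05). The S7A change of 0.45 ± 0.124 (adjusted p = 0.0103) lost its call without S7A replicate 1 (0.40, adjusted p = 0.0574) or WT replicate 1 (0.27, adjusted p = 0.0948). The Y1F change of 0.30 was not called with all libraries, and was at 0.50 (adjusted p = 0.014) without WT replicate 2.

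snr79 (SPSNORNA.54) was at 13.3 and 14.6 CPM in S2A, 13.5 and 14.7 CPM in S7A, 21.4 and 20.6 CPM in Y1F, and 19.1 and 18 CPM in WT. S2A and S7A lay below WT, at −0.42 ± 0.0996 (adjusted p = 0.00338) and −0.39 ± 0.0979 (adjusted p = 0.00581), and Y1F was at 0.18 and not called. sno52 (SPSNORNA.29) was at 46.4 and 57 CPM in S2A, 25.5 and 30.6 CPM in S7A, 44.7 and 50.3 CPM in Y1F, and 32.7 and 41.1 CPM in WT. S2A and Y1F lay above WT, at 0.48 ± 0.123 (adjusted p = 0.00539) and 0.38 ± 0.123 (adjusted p = 0.033), and S7A below, at −0.38 ± 0.129 (adjusted p = 0.0273). snr79 and sno52 each overlap a gene of the opposite strand, gpi12 and taf9, and their counts are uncertain to that extent. Each of the sno52 calls depended on single libraries. In S2A it was at 0.33 without S2A replicate 2 and 0.32 without WT replicate 1 (adjusted p = 0.0581 in both). S7A stood at −0.27 without S7A replicate 1 (adjusted p = 0.172) and at −0.21 without WT replicate 2 (adjusted p = 0.251). Y1F stood at 0.21 without WT replicate 1 (adjusted p = 0.258) and at 0.28 without Y1F replicate 2 (adjusted p = 0.225). snoR02 (SPSNORNA.12) was at 8.07 and 6.63 CPM in S2A, 5.81 and 5.69 CPM in S7A, 8.74 and 8.79 CPM in Y1F, and 5.76 and 7.14 CPM in WT. Its call in Y1F, 0.44 ± 0.158 (adjusted p = 0.045), was lost without WT replicate 1 (0.29, adjusted p = 0.263), Y1F replicate 1 (0.45, adjusted p = 0.112), Y1F replicate 2 (0.44, adjusted p = 0.17), S7A replicate 1 (0.44, adjusted p = 0.065) or S7A replicate 2 (0.44, adjusted p = 0.0654).

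**Figure D2:**
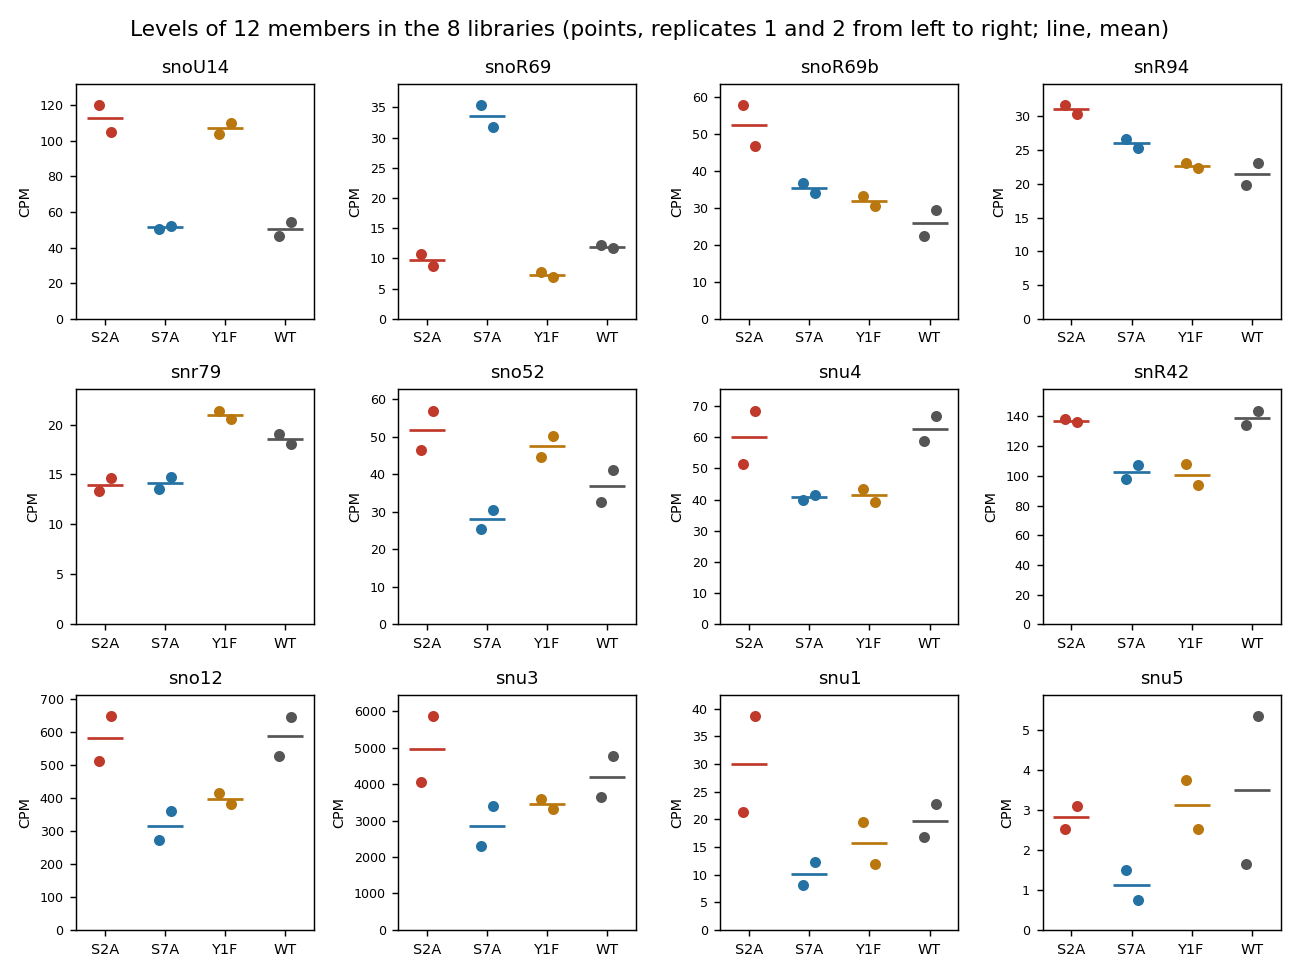
Level in CPM (y axis, from 0) of 12 members in the S2A, S7A, Y1F and WT libraries, with replicates 1 and 2 as points and the group mean as a line. snoU14 lies between 104 and 120 CPM in S2A and Y1F and between 46.6 and 54.6 CPM in S7A and WT, and snoR69 at 35.4 and 31.7 CPM in S7A with no other library above 12.2 CPM.

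The genes next to snoR69 and snoR69b did not rise with them. The nearest upstream gene of snoR69 on the same strand, rnp24, was at −0.23 in S7A (adjusted p = 0.00618; called in 6 of 8 fits without 1 library, and lost without S7A replicate 2 or WT replicate 1), and the nearest downstream gene, SPAC3G6.05, was at −0.10 (not called). Y1F had a lower SPAC3G6.05 level, at −0.35 ± 0.0673 (adjusted p = 0.00178). Upstream of snoR69b, SPNCRNA.242 was at −0.15 in S2A (adjusted p = 0.0183, lost without S2A replicate 1 or WT replicate 2). S7A stood there at −0.36 (adjusted p = 9.94e-05) and Y1F at −0.34 (adjusted p = 2.28e-04), and the downstream gene dap1 was called in none of the 3 (changes of −0.04 to −0.00). Taking all members, the nearest same-strand gene on the 3′ side was higher for 8 and lower for 12 of 32 tested in S2A, 10 and 3 in S7A, and 3 and 4 in Y1F, beside the 55.4%, 47.4% and 35.0% called over all genes. In S7A these were 5 and 1 without S7A replicate 1 and 5 and 2 without S7A replicate 2, and in Y1F 0 and 3 without either Y1F replicate and 0 and 4 by DESeq2. On the 5′ side 13 were higher and 9 lower of 35 in S2A (7 and 5 by DESeq2), 9 and 8 in S7A (6 and 5 without S7A replicate 1), and 6 and 4 in Y1F (3 and 3 without WT replicate 1, 2 and 2 without Y1F replicate 2). The medians of these groups lay between −0.09 and 0.03.

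Intronic snoRNAs are released from the spliced intron of a host gene, so that snoRNA and host share a primary transcript. In S7A 3 of the 9 tested intronic members were higher and 1 lower (1 and 0 by DESeq2), and in Y1F 1 was lower. In S2A 0 were called by edgeR or by DESeq2, with 1 and 0 at an unadjusted p under 0.05, and 2 were called without S2A replicate 1 and 1 without WT replicate 1. The S7A count of 4 was 0 without S7A replicate 1, 2 without S7A replicate 2 and 2 without WT replicate 1. snoU24b (SPSNORNA.11), in an intron of cpc2, was at 5.11 and 4.06 CPM in S2A, 8.63 and 6.89 CPM in S7A, 5.07 and 4.93 CPM in Y1F, and 4.45 and 4.94 CPM in WT. The S7A libraries lay above all others at 0.71 ± 0.18 over WT (adjusted p = 0.00621; 0.55, adjusted p = 0.0591, without S7A replicate 1), while cpc2, which codes for a ribosome-bound RACK1 protein, was at −0.35 ± 0.0552 (adjusted p = 2.96e-04). snoU18 (SPSNORNA.26), in ero11, was at 1.95 and 1.89 CPM in S2A, 3.05 and 2.71 CPM in S7A, 1.25 and 1.33 CPM in Y1F, and 1.64 and 1.79 CPM in WT. It was at 0.74 ± 0.227 in S7A (adjusted p = 0.0174), lost without S7A replicate 1 (0.66, adjusted p = 0.0842) or WT replicate 1 (0.69, adjusted p = 0.0911), and ero11 was higher at 0.27 ± 0.0572 (adjusted p = 0.00225). snoR38 (SPSNORNA.15), in SPAC29A4.02c, was at 2.19 and 2.03 CPM in S2A, 2.88 and 2.62 CPM in S7A, 1.69 and 2.04 CPM in Y1F, and 1.44 and 1.99 CPM in WT. Its S7A change of 0.67 ± 0.246 (adjusted p = 0.0389) lost its call without S7A replicate 1 (0.61, adjusted p = 0.135), S7A replicate 2 (0.75, adjusted p = 0.0881) or WT replicate 1 (0.46, adjusted p = 0.244), and the host was at −0.05.

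snoZ15 (SPSNORNA.23), in the prefoldin gene pfd1, was at 5.06 and 3.52 CPM in S2A, 3.71 and 4.22 CPM in S7A, 3.97 and 4.7 CPM in Y1F, and 5.04 and 7.55 CPM in WT. It was lower in S7A at −0.65 ± 0.229 (adjusted p = 0.0335), but not without S7A replicate 1 (−0.57, adjusted p = 0.136), S7A replicate 2 (−0.76, adjusted p = 0.078) or WT replicate 2 (−0.34, adjusted p = 0.311). Not called with all libraries, snoZ15 was at −0.83 in S2A without S2A replicate 1 (adjusted p = 0.0378), and without WT replicate 1 at −0.78 in S2A and Y1F alike (adjusted p = 0.0147 in S2A, 0.0273 in Y1F). S2A and Y1F had more of its host pfd1, at 0.67 ± 0.0808 (adjusted p = 2.14e-05) and 0.54 ± 0.0814 (adjusted p = 3.02e-04), and S7A stood at 0.14 (adjusted p = 0.182). snoR39a (SPSNORNA.31), in rlp7, was at 2.82 and 2.1 CPM in S2A, 2.7 and 2.75 CPM in S7A, 2.13 and 2.04 CPM in Y1F, and 3.01 and 3.5 CPM in WT. Its Y1F change was −0.65 ± 0.23 (adjusted p = 0.0458), and the adjusted p was between 0.0636 and 0.207 in the 6 fits without 1 S7A, Y1F or WT library, so that the call was lost in each. The host rlp7 was at −0.22 in Y1F (adjusted p = 0.00537; not called without Y1F replicate 2).

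**Figure D3:**
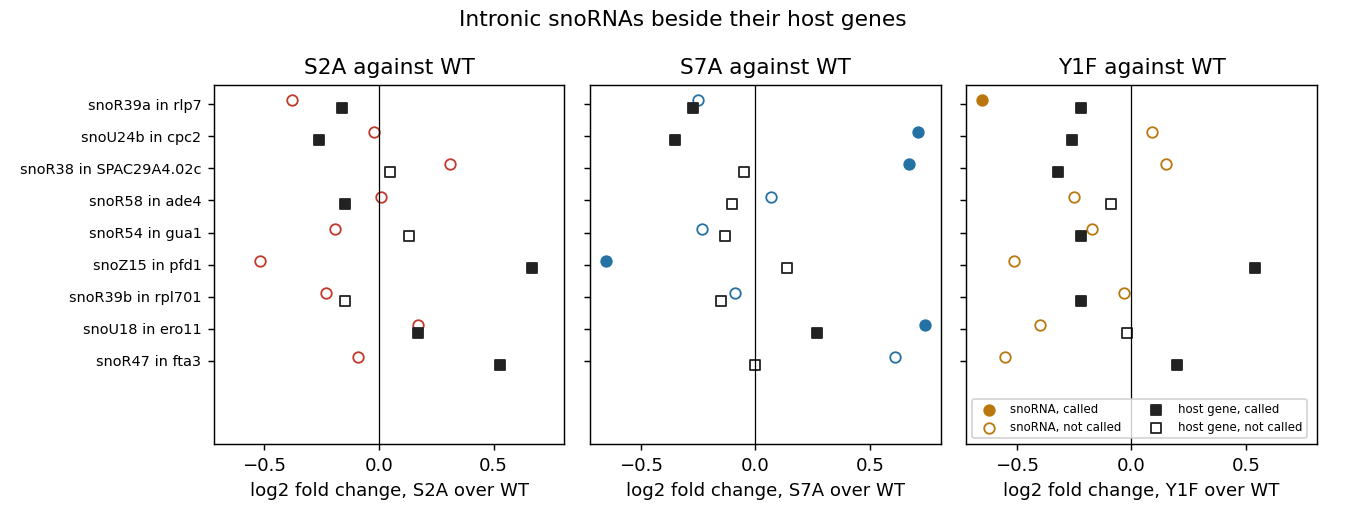
Log2 fold change over WT (x axis) of 9 intronic snoRNAs (circles) and their host genes (squares) in S2A, S7A and Y1F, filled where the adjusted p was under 0.05. In S7A snoU24b stands at 0.71 and its host cpc2 at −0.35, and in S2A and Y1F pfd1 stands at 0.67 and 0.54 with its snoZ15 at −0.52 and −0.51, not called.

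Members were also counted by length, a description without a test. Length is again the span of the gene with any intron counted in. By its span of 144 nt snu6 was placed among the longer members, and it is among the 2 of them higher in S7A. The shares called over all genes were 55.4% in S2A, 47.4% in S7A and 35.0% in Y1F. Among the members of 120 nt or longer they were 6.25%, 56.2% and 31.2%, and among the shorter ones 22.2%, 44.4% and 27.8%. Of 16 tested members of 120 nt or longer, 1 was higher and 0 lower in S2A (median 0.16), 2 higher and 7 lower in S7A (median −0.38), and 0 higher and 5 lower in Y1F (median −0.33). Of 18 shorter members, of at most 112 nt, 3 were higher and 1 lower in S2A (median −0.14), 5 higher and 3 lower in S7A (median 0.02), and 3 higher and 2 lower in Y1F (median −0.10). The S7A split of the longer members was 2 higher and 4 lower without S7A replicate 1, 5 and 4 without WT replicate 2, and 0 and 10 without WT replicate 1. Their 5 lower calls in Y1F were 2 without Y1F replicate 2, 3 without WT replicate 2 and 8 without WT replicate 1, and the single call in S2A became 4 without WT replicate 2, 3 without WT replicate 1, and 2 without either S2A replicate. The 8 calls of the shorter members in S7A were 2 without S7A replicate 1 and 5 without WT replicate 1, and the 4 in S2A were 9 without S2A replicate 1. Their 5 calls in Y1F were 2 without Y1F replicate 2, and 3 without Y1F replicate 1 or either S7A replicate. DESeq2 called 4 longer members in S7A and 3 in Y1F, and 5 shorter members in S7A and 3 in Y1F.

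Between replicates, the longer members had a median log2 difference of 0.30 in S2A, 0.29 in S7A, −0.13 in Y1F and 0.37 in WT, replicate 2 minus replicate 1. The shorter members had −0.28 in S2A, −0.09 in S7A, 0.00 in Y1F and 0.24 in WT, and all genes tested lay between −0.00 and 0.01 in each strain. In WT 15 of the 16 longer members and 16 of the 18 shorter ones were higher in replicate 2. The median changes of the longer members against WT were 0.16 in S2A, −0.38 in S7A and −0.33 in Y1F, as given above, and the part of the replicate differences in the calls was not tested. The chi-square of the 2 libraries' counts, averaged over small RNAs, was 246 in S2A, 182 in S7A, 13.6 in Y1F and 156 in WT. Over all genes the averages were 8.61, 8.3, 4.94 and 11. At a like relative difference this measure rises with the counts. The small RNA averages are thus weighted to snu3 and snu32 and do not describe a typical member.

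**Figure D4:**
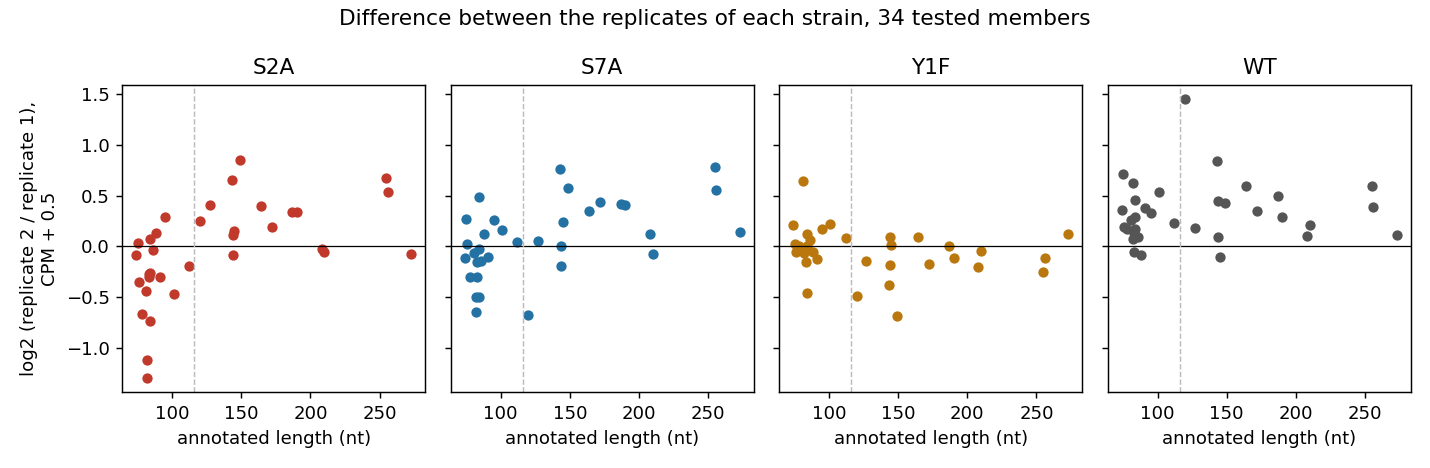
Log2 ratio of replicate 2 to replicate 1 in CPM + 0.5 (y axis) against annotated length in nt (x axis) for the 34 tested members in S2A, S7A, Y1F and WT; the dashed line parts members of 120 nt or longer from those of at most 112 nt. The longer members lie mostly above 0 in S2A, S7A and WT (12, 12 and 15 of 16) and mostly below it in Y1F (11 of 16).

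Between mutants, the called share of tested members was 50% for S2A against S7A, 38.2% for S2A against Y1F and 32.4% for Y1F against S7A. Each was below the share over all genes. S2A against S7A had 13 members higher in S2A and 4 lower, where 53.1% of all genes were called (28.3% higher, 24.9% lower), and S2A against Y1F had 12 higher and 1 lower, where 48.9% of all genes were called (25.1% higher, 23.7% lower). Y1F against S7A had 5 higher and 6 lower in Y1F, where 48.7% of all genes were called (25.7% higher, 23.0% lower). The 13 calls between S2A and Y1F were 7 without S2A replicate 2, and also 7 without Y1F replicate 2. By length, S2A against S7A had 68.8% of the longer and 33.3% of the shorter members called. S2A against Y1F had 62.5% and 16.7%. Of the 18 shorter members, 3 were higher and 3 lower in S2A than in S7A, and 2 higher and 1 lower in S2A than in Y1F. Of the 16 longer members, 10 were higher and 1 lower in S2A than in S7A (7 and 1 by DESeq2), and 10 higher and 0 lower in S2A than in Y1F. The last count was 4 without S2A replicate 2, 5 without Y1F replicate 2 and 5 by DESeq2. Among the 41 calls between mutants, 23 held under every other setting that gave a value (14 or 15 of them). DESeq2 did not call snu2, snu32, snR94 and snoU18 between S2A and S7A. It also did not call snu1, snu2, snu3, snu32 and snR93 between S2A and Y1F, or snR93 and snoR47 between Y1F and S7A. snoR69 differed most, by −2.21 ± 0.116 in Y1F over S7A (adjusted p = 2.21e-08) and −1.76 ± 0.11 in S2A over S7A (adjusted p = 5.51e-08). snoU14 was higher than in S7A in both S2A (1.14 ± 0.0748, adjusted p = 8.65e-08) and Y1F (1.06 ± 0.0751, adjusted p = 2.71e-07). snr79 was lower in S2A than in Y1F (−0.60 ± 0.0961, adjusted p = 2.68e-04) and higher in Y1F than in S7A (0.57 ± 0.0944, adjusted p = 3.47e-04).

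U1 differed by 1.51 ± 0.287 in S2A over S7A (adjusted p = 7.08e-04), and held under the 15 other settings. snR93 was lower in Y1F than in S7A (−1.17 ± 0.301, adjusted p = 0.00673) and higher in S2A than in Y1F (1.12 ± 0.306, adjusted p = 0.00901). Without Y1F replicate 2 these became −0.95 (adjusted p = 0.0735) and 0.91 (adjusted p = 0.0875), without S7A replicate 2 the first was −0.70 (adjusted p = 0.112), and without S2A replicate 2 the second was 0.78 (adjusted p = 0.0925). snoR47 (SPSNORNA.27), in an intron of fta3, was at 1.07 and 1.15 CPM in S2A, 1.38 and 2.13 CPM in S7A, 0.735 and 0.843 CPM in Y1F, and 0.917 and 1.44 CPM in WT. It was called only in Y1F over S7A, at −1.16 ± 0.332 (adjusted p = 0.0121), with 0.169 without S7A replicate 2, 0.054 without Y1F replicate 1 and 0.061 without Y1F replicate 2 as adjusted p, and in S2A over S7A without S7A replicate 1 (−0.94, adjusted p = 0.038).

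The other 23 of the 60 IDs had fewer than 15 counts, 18 of them 0 in every library. For a row with no overlapping gene, 0 counts allow a level of up to 0.13 to 0.224 CPM by library (3 counts, counting error only). Of the 18, 13 overlap an exon of another annotated RNA of the same strand that has its own row. Among them are snoZ3, snoZ4, snoZ5, snoZ7 and snoZ8 with snoZ, and snR41, snR70 and snR51b with SPNCRNA.723. No source used here says how reads on overlapping genes were counted, so that 0 counts set no limit on the level of these 13. snR30, named like the H/ACA RNA needed for 18S production in budding yeast, was also at 0 and has no such overlap. The overlapping RNAs had their own changes. snoZ was at 33.8 and 30.9 CPM in S2A, 46 and 46.7 CPM in S7A, 46 and 43.2 CPM in Y1F, and 24.8 and 38.2 CPM in WT. S7A was higher at 0.56 ± 0.135 (adjusted p = 0.00445) and Y1F at 0.50 ± 0.136 (adjusted p = 0.0133), the Y1F call being lost without WT replicate 1 or Y1F replicate 1 (adjusted p of at most 0.0742). SPNCRNA.1483, over snoZ30, was at 14 and 13.9 CPM in S2A, 29.1 and 30.6 CPM in S7A, 22.8 and 23 CPM in Y1F, and 24.2 and 31.1 CPM in WT, and was lower in S2A at −0.99 ± 0.113 (adjusted p = 1.29e-05). SPNCRNA.617, over snR97, was higher in S2A at 0.57 ± 0.0971 (adjusted p = 3.20e-04), with 22.7 and 22.1 CPM in S2A, 14 and 14.2 CPM in S7A, 13.6 and 14.5 CPM in Y1F, and 14.1 and 16.1 CPM in WT.

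Genes for the proteins that package and process these RNAs were called in both directions. Here and in the next paragraph they are grouped by their proteins, but all values are of transcripts, as no protein was measured. Of 53 tested genes for snoRNP, snRNP and processing factors, 12 were higher and 12 lower in S2A, 10 and 15 in S7A, and 12 and 7 in Y1F, with medians of −0.03, −0.05 and 0.02, where 55.4%, 47.4% and 35.0% of all genes were called. The S7A count of 25 was 15 without S7A replicate 1 and 16 without S7A replicate 2. The Y1F count of 19 was 4 without Y1F replicate 2, 9 without Y1F replicate 1 and 9 without WT replicate 1. Among 16 genes for small RNA processing and termination, 5 were higher and 3 lower in S2A, 1 and 9 in S7A, and 4 and 1 in Y1F. The 10 calls in S7A were 6 without S7A replicate 1, 5 without any 1 of S7A replicate 2, WT replicate 1 and WT replicate 2, and 5 by DESeq2. The 5 in Y1F were 1 without Y1F replicate 1, 2 without Y1F replicate 2 and 2 by DESeq2, and the 8 in S2A were 5 without S2A replicate 1 or WT replicate 2. seb1, a CTD- and RNA-binding termination factor, was lower in S7A (161 and 161 CPM, against 218 and 208 CPM in WT; −0.41 ± 0.0439, adjusted p = 1.72e-05). dbl8, a Sen1-like helicase, was lower there too (215 and 211 CPM, against 262 and 278 CPM in WT; −0.34 ± 0.0433, adjusted p = 5.56e-05), and so was cid14, a poly(A) polymerase of the exosome's helper complex (135 and 128 CPM, against 154 and 153 CPM in WT; −0.22 ± 0.0453, adjusted p = 0.00166). sen1, a helicase whose budding yeast relative ends snoRNA transcription, was higher in S2A (404 and 410 CPM, against 295 and 300 CPM in WT; 0.45 ± 0.0403, adjusted p = 1.47e-06) and in Y1F (379 and 385 CPM; 0.36 ± 0.0404, adjusted p = 3.10e-05).

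Of the 4 box C/D core proteins, 0 were called in S2A and S7A by edgeR or DESeq2, with 0 at an unadjusted p under 0.05 (1 was lower in S2A without WT replicate 2), and 3 were lower in Y1F: fib1, the fibrillarin methyltransferase, at −0.20 ± 0.062 (adjusted p = 0.0241), nop56 at −0.22 ± 0.0562 (adjusted p = 0.00966) and snu13 at −0.20 ± 0.0463 (adjusted p = 0.00609). None of the 3 was called without Y1F replicate 2, and fib1 and nop56 were also lost without WT replicate 1 (adjusted p of at most 0.274). Of the 4 box H/ACA core proteins 2 were lower in each mutant. In Y1F 0 were called without WT replicate 1 or Y1F replicate 2, in S7A 1 without S7A replicate 1, and in S2A 1 without S2A replicate 1, either S7A replicate or Y1F replicate 2. gar1 was at 486 and 475 CPM in S2A, 481 and 470 CPM in S7A, 543 and 496 CPM in Y1F, and 607 and 569 CPM in WT, lower in S2A at −0.29 ± 0.0534 (adjusted p = 5.80e-04), S7A at −0.31 ± 0.0534 (adjusted p = 5.69e-04) and Y1F at −0.18 ± 0.0534 (adjusted p = 0.021; lost without WT replicate 1 or Y1F replicate 2). Of the 7 Sm proteins, which bind snRNAs other than U6, 1 was higher and 2 lower in S2A, 2 and 2 in S7A (1 and 1 by DESeq2), and 2 and 1 in Y1F (1 and 0 without either Y1F replicate or by DESeq2). sme1 was higher in each mutant, at 96.6 and 95.3 CPM in S2A, 119 and 118 CPM in S7A, and 107 and 101 CPM in Y1F, against 75.7 and 78.4 CPM in WT, with a change of 0.62 ± 0.0455 in S7A (adjusted p = 6.71e-07). Of the 8 Lsm proteins, of which a ring of 7 binds U6, 3 were higher and 2 lower in S2A, 4 and 0 in S7A, and 3 and 0 in Y1F. The 5 calls in S2A were 3 without S2A replicate 1, S2A replicate 2 or WT replicate 1, and 2 by DESeq2. The 4 in S7A were 2 without S7A replicate 1 or WT replicate 1 and by DESeq2, and the 3 in Y1F were 1 without WT replicate 1 or either Y1F replicate and by DESeq2. lsm4 was higher in all 3 mutants, at 0.23 in S2A, 0.26 in S7A and 0.30 in Y1F.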

How the data were processed

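Total RNA of 8 libraries, 2 for each of S2A, S7A, Y1F and WT, was sequenced after ribosomal RNA depletion with a strand-preserving kit, per the labels' protocols. The deposited counts are whole numbers that the authors made per gene ID in each library, not normalized. Tools named in the submitters' processing notes are deepTools, DESeq2, StringTie, featureCounts and HISAT2, with the build ASM294v2. No source used here gives their versions, roles or strand setting. Other assays were not used here.

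The counts entered edgeR 4.0.16 under R 4.3.3: filterByExpr (minimum count 10, minimum total 15), which left 6243 genes, TMM scaling, and a quasi-likelihood fit of all 8 libraries with 1 mean per strain and 4 residual degrees of freedom. The fit gave a common dispersion of 0.00197 (coefficient of variation 4.44%). A gene was called at an adjusted p under 0.05 (Benjamini-Hochberg, all tested genes). SE is the absolute log2 change over the root of F. Replicate ratios used a pseudocount of 0.5 CPM. The fit was also run on counts simulated with the common dispersion for every gene. These lack the shifts of the small RNAs between replicates, so the run bears on no call of a member. Libraries of a strain differed by more than sampling noise. The chi-square averaged 4.94 to 11 over all genes and 13.6 to 246 over the small RNAs, the latter weighted to the U3 RNAs. Figures were drawn with matplotlib 3.10.9, and tables with numpy 2.4.6 and pandas 2.3.3 under Python 3.11.15.

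By ID, 6803 of the 7000 rows matched the RefSeq annotation of ASM294v3. Its build differs from that of the counts, so it gave names, classes, overlaps, neighbours, lengths and RNA sequences, and no coordinates are printed.

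The members, lists and the length split were chosen with earlier results of these data known. Named were all SPSNRNA members, each SPSNORNA member called in any of 6 comparisons, the 5 most abundant SPSNORNA members, snoR47 as the tested member of lowest level, and rpb1. Of each list of factor genes or neighbours, at most 4 called genes of at least 5 CPM with the largest change per mutant were named, and rnp24, dap1 and the hosts of called members outside that rule were chosen after their values were seen. Of 59 factor genes listed, 53 were matched and tested; the symbols sik1, usp104, usp105, usp106, prp8 and rai1 were not matched. The other settings were DESeq2 1.42.0, RLE scaling, scaling on protein-coding genes, no filter, at least 5 CPM in 2 libraries, the compared strains only, a replicate block and each of 8 libraries left out, which are the 15 settings under which single calls were followed, and for counts against WT also a 1.5-fold threshold and members with no overlapping gene.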

Additional observations from a re-analysis of the deposited data

How the results depend on the processing

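The counts of called members against WT were 5 in S2A, 17 in S7A and 10 in Y1F. With DESeq2 they were 9 in S7A and 6 in Y1F, and 8 instead of 13 between S2A and Y1F. Tested against a 1.5-fold threshold they were 2 in S2A, 1 in S7A and 1 in Y1F. Among the 19 tested members with no overlapping gene they were 3, 11 and 6. Leaving out 1 library at a time gave 5 to 11 in S2A, 8 to 18 in S7A and 4 to 12 in Y1F, 14 to 18 between S2A and S7A, 7 to 13 between S2A and Y1F and 8 to 13 between Y1F and S7A. Of the factor genes, 25 were called in S7A and 19 in Y1F, and DESeq2 called 15 and 10. Without 1 library these were 15 to 25 and 4 to 18, and 16 to 22 in S2A. The 35 and 26 called neighbouring or overlapping genes of S7A and Y1F were 22 to 33 and 12 to 28 without 1 library. Mean shares without snu3 were 0.319% in S2A, 0.197% in S7A, 0.208% in Y1F and 0.279% in WT. No result changed sign among values called in both settings, and the causes of these differences were not tested.

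Over all genes tested, deviations of same-numbered libraries had correlations of −0.163 to 0.178 between strains. These correlations do not show whether replicate numbers pair the libraries for the small RNAs, which was not tested. Of the 16 longer members, 12, 12 and 15 were higher in replicate 2 in S2A, S7A and WT, and 5 in Y1F. With a replicate block 7 members were called in S2A, 19 in S7A and 8 in Y1F, and 16, 13 and 12 in S2A against S7A, S2A against Y1F and Y1F against S7A. It added U2 and snoR69 in S2A (0.23, adjusted p = 0.0494; −0.29, adjusted p = 0.0446), U2, snu32 and sno20 in S7A (−0.24, −0.61 and −0.32; adjusted p = 0.0458, 0.0195 and 0.0354) and sno12 between Y1F and S7A (0.35, adjusted p = 0.0136), and lost snoR38 in S7A, snoR02 and snoR39a in Y1F and snoU18 between S2A and S7A (adjusted p of 0.0504 to 0.0631). Depth limits the members at about 1 CPM, and snoU24, snR96 and snoR54b were below the filter.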
